A study of Mus musculus with 10 samples.

Results

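The 10 genes described here are Optc, Best2, Slc26a4, Ltbp2, Mfap4, Gpx3, Aldh3a1, Slc13a4, Arsi and Colec12. They were grouped as genes of the ciliary body and the front of the eye, and were followed in RNA of mouse retina. They are rows of a deposited gene count table of 19999 genes, picked by symbol, and 10 of 10 passed the filter on low counts that left 16852 genes for testing. They were chosen with the results of the comparison below already known, because they were higher in light damage, so their own differences between groups are given as a description: calls are counted, no gene among them gets a p-value, and nothing is supported with the counts. The study used BALB/c mice, an albino strain. The 5 libraries named LD-vehicle-1 to LD-vehicle-5 are of a light-induced retinal damage model, and the 5 named CTRL-vehicle-1 to CTRL-vehicle-5 are controls. Both sets of names carry the word vehicle, and no genetic change is named in the labels. A compound called A74 is named in the design text, and none of the 10 libraries analysed here is labelled with it. Light dose, time after exposure, age and sex are not given in the labels, and nothing there says whether 1 library is 1 animal or a pool.

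The ciliary body is the ring of tissue between retina and iris. Its inner, non-pigmented epithelium is continuous with the neural retina. It secretes aqueous humour by moving ions, and it makes components of the vitreous gel and of the zonule, the fibres that hold the lens. These genes are not textbook markers of the neural retina itself. Optc encodes opticin, a small leucine-rich proteoglycan of the vitreous. Ltbp2 and Mfap4 encode proteins of fibrillin microfibrils, the material of the zonule. Best2 encodes a bestrophin chloride channel of the non-pigmented ciliary epithelium, Slc26a4 the anion exchanger pendrin and Slc13a4 a sodium-sulfate cotransporter. Gpx3 encodes the secreted glutathione peroxidase and Aldh3a1 an aldehyde dehydrogenase that is abundant in the corneal epithelium. Arsi encodes a sulfatase and Colec12 a scavenger receptor of the collectin family.

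The libraries of a group were not alike. Total counts lay between 14652535 and 20699236. Xist, the RNA of the inactive X chromosome and so a mark of female cells, was read 17174 times in LD-vehicle-1 and 20414 times in LD-vehicle-2, and between 1 and 9 times in the other 8 libraries. LD-vehicle-1 and LD-vehicle-2 are therefore set apart below. No control library had a high Xist count, so whatever sets these libraries apart cannot be told apart from light damage within them. Defining genes of retina were abundant in both groups. Gnat1, the alpha subunit of rod transducin, had a mean of 14364 ± 1621 CPM in the LD libraries against 16877 ± 3582 in the CTRL libraries (SD, n = 5 each), where CPM is a count scaled to the library total.

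The 10 genes were highest in LD-vehicle-1 and LD-vehicle-2. In both of these libraries 10 of the 10 lay above every other library, which was so for 4.71% of all genes tested. LD-vehicle-1 was the highest library for 9 of them and LD-vehicle-2 for Colec12, by a margin too small to separate them (6.096 against 6.101 CPM). LD-vehicle-5 was the lowest light damage library for 10 of 10. Set against the median control, the median over the 10 genes was 18.5-fold in LD-vehicle-1 (from 5.06 to 31.9) and 13.3-fold in LD-vehicle-2 (from 4.28 to 24.3). It was 2.21-fold in LD-vehicle-3 and 2.44-fold in LD-vehicle-4. In LD-vehicle-5 it was 0.705-fold, inside the range of the controls, which ran from 0.664 in CTRL-vehicle-1 to 1.99 in CTRL-vehicle-4. By this median, the light damage group held 3 levels of these genes, the middle one little above CTRL-vehicle-4. Only by the median was LD-vehicle-5 at control level. Gene by gene, 3 of the 10 were within the control range there, 4 were below every control and 3 above. In RNA of whole tissue, more cells of a type and more RNA per cell cannot be told apart.

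**Figure D1:**
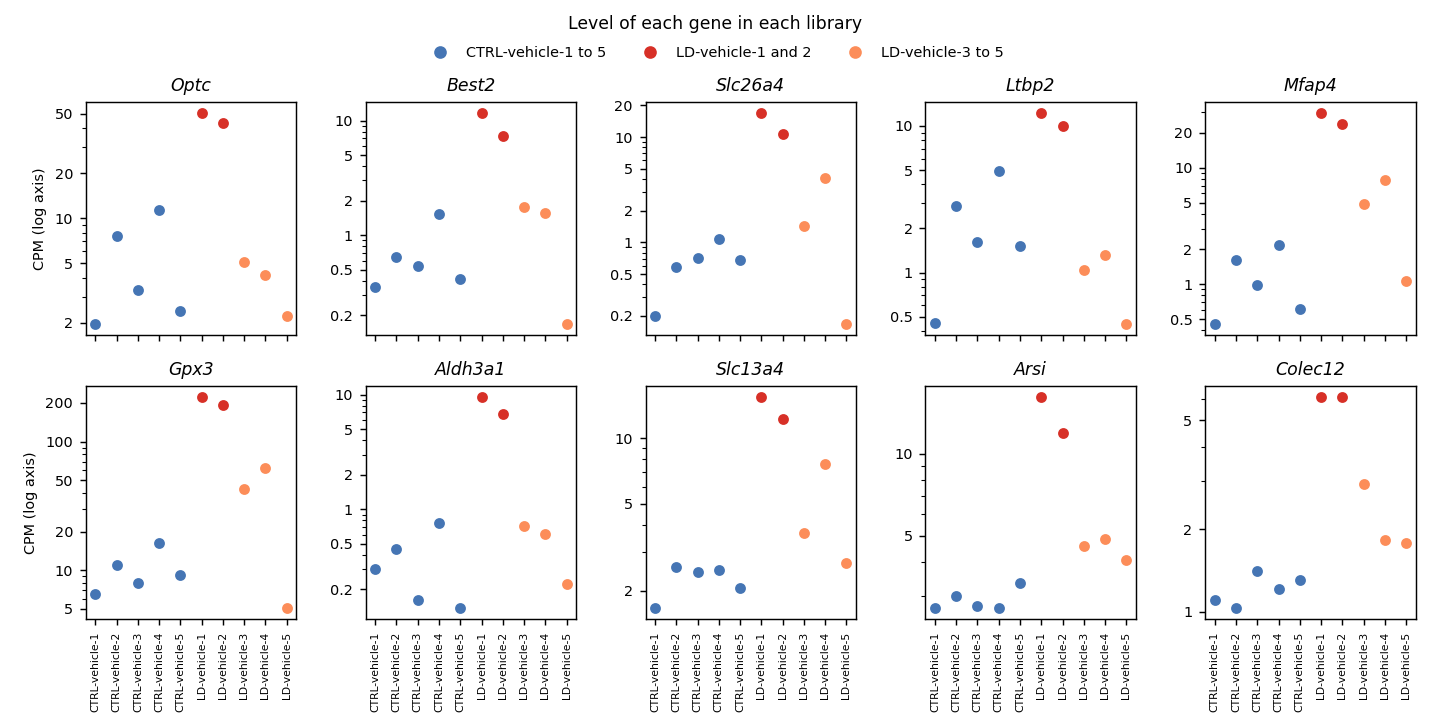
Level of each of the 10 genes in each library, in CPM on a log axis with its own range per gene; 1 point is 1 library. LD-vehicle-1 and 2 lie above the other 8 libraries in each panel, and LD-vehicle-5 is the lowest light damage library in each.

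By the edgeR quasi-likelihood test of light damage against control, 5 of the 10 genes were called higher at an adjusted p under 0.05, against 5.32% of 16852 genes tested. Nothing is read from that count, since the choice of the genes used this contrast. The called genes were Mfap4, Gpx3, Slc13a4, Arsi and Colec12, and Optc, Best2, Slc26a4, Ltbp2 and Aldh3a1 were not called. The median log2 fold change over the 10 was 2.35, from 1.16 to 3.55, where that of all genes tested was 0.00165. In 3 of the 10, Slc13a4, Arsi and Colec12, each light damage library lay above each control, which was so for 4.31% of all genes. Without LD-vehicle-1 and LD-vehicle-2, 0 of the 10 were called by edgeR's quasi-likelihood test, against 0.782% of 17253 genes called higher. An unadjusted p under 0.05 was reached there by 5 of the 10. Nothing is read from either count, since the choice of the genes used these libraries. The share of all genes under that unadjusted threshold was not counted. DESeq2 was not run on those 8 libraries. The median log2 fold change of the 10 genes was then 0.81, from -1.25 to 1.99. Colec12 was called in 10 of the 10 fits that left out 1 library, Arsi in 4, Slc13a4 in 2, and Gpx3 and Mfap4 in 1, the fit without LD-vehicle-5.

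**Figure D2:**
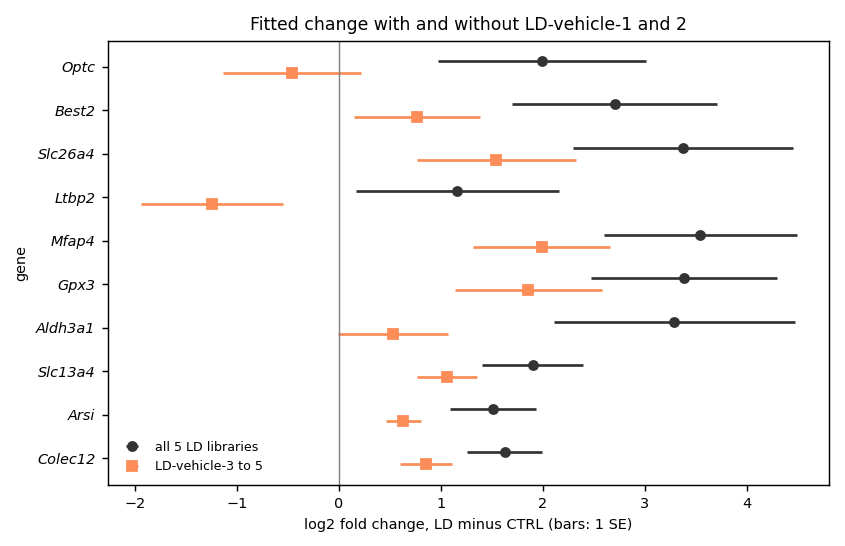
Fitted log2 fold change of each gene, light damage minus control, with bars of 1 SE, from all 5 light damage libraries and from LD-vehicle-3 to 5. With LD-vehicle-1 and 2 left out, the values of Optc and Ltbp2 pass from 1.99 and 1.16 to -0.46 and -1.25, and the other 8 stay above 0.

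RefSeq start sites with upstream sequence were matched for 5 of the 10 genes, Optc, Slc26a4, Ltbp2, Gpx3 and Slc13a4. Those of the 4 genes that differ most in pattern are shown as the 250 bases before the start, 5′ to 3′ on the gene's strand, from RefSeq on GRCm38.p6. That build is not the GRCm39 named in the submitters' processing notes, and the counts were not joined to these positions. Optc lies at chr1:133908000-133908249 on the minus strand, Ltbp2 at chr12:84876492-84876741 on the minus strand, Slc26a4 at chr12:31559985-31560234 on the minus strand and Gpx3 at chr11:54902604-54902853 on the plus strand. Capitals mark a match to TAATCC, the core bound by OTX-type homeodomain factors, or to TATAAA, the TATA box.
Optc: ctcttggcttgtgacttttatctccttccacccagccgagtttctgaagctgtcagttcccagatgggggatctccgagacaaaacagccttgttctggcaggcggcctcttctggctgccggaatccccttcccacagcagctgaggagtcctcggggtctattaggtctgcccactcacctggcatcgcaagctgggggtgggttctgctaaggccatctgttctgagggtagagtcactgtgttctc
Ltbp2: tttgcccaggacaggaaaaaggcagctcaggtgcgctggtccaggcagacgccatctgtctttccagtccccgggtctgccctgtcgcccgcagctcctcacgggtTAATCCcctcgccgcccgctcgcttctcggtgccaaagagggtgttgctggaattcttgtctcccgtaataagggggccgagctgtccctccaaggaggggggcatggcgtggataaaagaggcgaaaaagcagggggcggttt
Slc26a4: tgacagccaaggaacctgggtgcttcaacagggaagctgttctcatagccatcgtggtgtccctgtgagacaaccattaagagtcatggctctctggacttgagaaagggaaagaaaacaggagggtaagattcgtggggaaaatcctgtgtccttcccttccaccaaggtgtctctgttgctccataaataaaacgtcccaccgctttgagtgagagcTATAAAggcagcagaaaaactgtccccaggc
Gpx3: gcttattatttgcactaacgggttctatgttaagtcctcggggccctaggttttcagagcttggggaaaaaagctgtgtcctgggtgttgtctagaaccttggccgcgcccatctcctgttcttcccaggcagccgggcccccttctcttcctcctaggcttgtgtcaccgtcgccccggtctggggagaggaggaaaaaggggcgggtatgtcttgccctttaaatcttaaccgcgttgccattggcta
On either strand, TAATCC was found in Ltbp2 alone of the 5, with its first base at position -144, and in 6.25% of 32851 promoters of this length. TATAAA was found in Slc26a4 alone of the 5, with its first base at position -31, and in 12.4% of all promoters. The E-box letters CATGTG were in 0 of the 5 and in 12.3% of all promoters. The palindromic E-box CACGTG was in 0 of the 5 and in 6.02% of all. The core of the antioxidant response element, TGACNNNGC, was in 0 of the 5 and in 10.2% of all. GC content was 56.8% for Optc, 61.6% for Ltbp2, 49.6% for Slc26a4 and 55.2% for Gpx3, beside a median of 52.4% over all promoters. The 5 windows shared none of the letters searched, which says nothing about the factors that bind there.

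Among the matrix genes, Optc and Ltbp2 were high in LD-vehicle-1 and 2 and no higher than control in the other light damage libraries. Optc had 50.8 and 43.2 CPM in LD-vehicle-1 and 2, and 5.06, 4.21 and 2.23 CPM in LD-vehicle-3, 4 and 5. The controls, CTRL-vehicle-1 to 5, had 1.96, 7.65, 3.31, 11.4 and 2.40 CPM. The groups overlapped, and LD-vehicle-3 to 5 all lay within the control range. Its fitted log2 fold change was 1.99 (SE 1.02) with all libraries and -0.46 (SE 0.67) without LD-vehicle-1 and 2. Ltbp2 had 12.4 and 9.98 CPM in LD-vehicle-1 and 2, and 1.04, 1.33 and 0.445 CPM in LD-vehicle-3, 4 and 5. Its controls had 0.453, 2.83, 1.63, 4.95 and 1.51 CPM, so 4 of the 5 controls were above each of LD-vehicle-3 to 5. The log2 fold change of Ltbp2 was 1.16 (SE 0.99) and turned to -1.25 (SE 0.70) without LD-vehicle-1 and 2. RefSeq places 1 other gene over Ltbp2, and the labels do not say whether reads were counted by strand, so its counts may hold reads of that gene.

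Mfap4, a glycoprotein with a fibrinogen-like domain that binds microfibrils, kept a higher level in LD-vehicle-3 and 4. It had 29.8, 23.7, 4.83, 7.81 and 1.06 CPM in LD-vehicle-1 to 5. In CTRL-vehicle-1 to 5 it had 0.453, 1.61, 0.976, 2.16 and 0.617 CPM. LD-vehicle-1 to 4 lay above every control and LD-vehicle-5 among them. The log2 fold change was 3.55 (SE 0.94), and 1.99 (SE 0.67) without LD-vehicle-1 and 2. Mfap4 and Ltbp2, both microfibril genes, therefore ran in parallel in LD-vehicle-1 and 2 and apart in LD-vehicle-3 and 4: Mfap4 was 4.94-fold and 7.999-fold the median control there, and Ltbp2 0.640-fold and 0.817-fold.

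The 3 anion transport genes formed no single pattern either. Best2 had 11.7, 7.34, 1.75, 1.55 and 0.167 CPM in LD-vehicle-1 to 5. It had 0.352, 0.643, 0.542, 1.52 and 0.411 CPM in the controls. LD-vehicle-3 and 4 exceeded the highest control, CTRL-vehicle-4, by little, and LD-vehicle-5 was below all controls. Its log2 fold change was 2.71 (SE 1.00), and 0.77 (SE 0.62) without LD-vehicle-1 and 2. Slc26a4 had 17.1, 10.8, 1.42, 4.04 and 0.167 CPM in LD-vehicle-1 to 5, and 0.201, 0.579, 0.705, 1.08 and 0.685 CPM in the controls. For this anion exchanger LD-vehicle-4 stood 2.85-fold above LD-vehicle-3, the widest gap between those libraries among the 10 genes. The log2 fold change of Slc26a4 was 3.38 (SE 1.08), and 1.54 (SE 0.78) without LD-vehicle-1 and 2.

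Slc13a4, the sulfate cotransporter, did not overlap between the groups, and its fitted log2 fold change stayed above 1 without LD-vehicle-1 and 2. It had 15.5, 12.3, 3.69, 7.64 and 2.67 CPM in LD-vehicle-1 to 5 and 1.66, 2.57, 2.44, 2.47 and 2.06 CPM in the controls. LD-vehicle-5 exceeded the highest control by little. The log2 fold change was 1.90 (SE 0.50), and 1.06 (SE 0.29) without LD-vehicle-1 and 2.

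Of the enzymes, Gpx3 was the most abundant of the 10 genes, by CPM and also per length. It had 224, 193, 42.5, 62.0 and 5.06 CPM in LD-vehicle-1 to 5. In the controls it had 6.54, 11.1, 7.92, 16.2 and 9.11 CPM. LD-vehicle-3 and 4 were above every control, and LD-vehicle-5 was below every control. The log2 fold change of Gpx3 was 3.38 (SE 0.91), and 1.86 (SE 0.72) without LD-vehicle-1 and 2. Aldh3a1 had 9.62, 6.72, 0.71, 0.609 and 0.223 CPM in LD-vehicle-1 to 5 and 0.302, 0.450, 0.163, 0.761 and 0.137 CPM in the controls. LD-vehicle-3 to 5 lay within the range of the controls. Its log2 fold change was 3.29 (SE 1.19), and 0.53 (SE 0.54) without LD-vehicle-1 and 2. The lowest library, CTRL-vehicle-5, held 2 counts of Aldh3a1, with an exact Poisson 95% interval of 0.242 to 7.22 counts, and LD-vehicle-1 held 172, with an interval of 147 to 199.7. These intervals cover counting error only. Aldh3a1 had the widest step between LD-vehicle-1 and 2 and the rest: the lower of the pair was 8.83-fold above the highest of the other 8 libraries.

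Arsi and Colec12 had the smallest ratios of the highest to the lowest control among the 10 genes, 1.24 and 1.37. Arsi had 16.2, 11.8, 4.59, 4.87 and 4.06 CPM in LD-vehicle-1 to 5 and 2.72, 3.02, 2.77, 2.73 and 3.36 CPM in the controls, so the groups did not overlap. Its log2 fold change was 1.51 (SE 0.42), and 0.63 (SE 0.17) without LD-vehicle-1 and 2. Colec12 had 6.10, 6.10, 2.93, 1.83 and 1.78 CPM in LD-vehicle-1 to 5 and 1.11, 1.03, 1.41, 1.20 and 1.30 CPM in the controls, again without overlap. Its log2 fold change was 1.63 (SE 0.37), and 0.85 (SE 0.26) without LD-vehicle-1 and 2. RefSeq places 3 other genes over Colec12, so the caution on strand holds for it too.

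**Figure D3:**
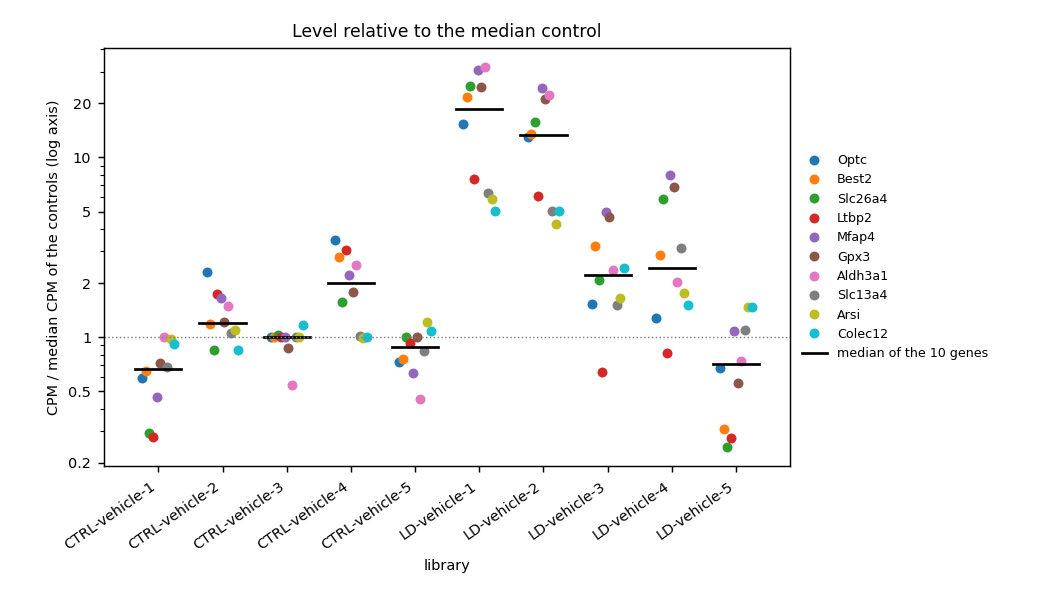
Level of each gene in each library divided by its median over the 5 controls, on a log axis; points are genes, black bars are medians of the 10 genes, and the dotted line is the median control. The bars stand at 18.5 and 13.3 in LD-vehicle-1 and 2, at 2.21 and 2.44 in LD-vehicle-3 and 4, and at 0.705 in LD-vehicle-5.

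The controls varied along the same genes. CTRL-vehicle-4 was the highest control for 7 of the 10, Optc, Best2, Slc26a4, Ltbp2, Mfap4, Gpx3 and Aldh3a1, where it was the highest control for 18.9% of all genes tested. The ratio of the highest to the lowest control was 10.9 for Ltbp2, 5.82 for Optc and 5.55 for Aldh3a1. It was 1.55 for Slc13a4, 1.37 for Colec12 and 1.24 for Arsi, the 3 genes without overlap between groups. In LD-vehicle-5, 4 of the 10 genes were below every control, Best2, Slc26a4, Ltbp2 and Gpx3, 3 were above every control, Slc13a4, Arsi and Colec12, and 3 were within the control range. For each of Best2 and Slc26a4 that low value rests on 3 counts in LD-vehicle-5, and for Ltbp2 on 8. CTRL-vehicle-1, the lowest control for these 3 genes, held 7 counts of Best2, 4 of Slc26a4 and 9 of Ltbp2. The exact Poisson 95% intervals of the counts overlapped between these 2 libraries, also for Gpx3 with 91 and 130 counts.

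Per length of annotated exon, the order of the mean control levels was led by Gpx3 with 5.61 CPM per kilobase, followed by Optc with 2.08, Arsi with 0.981, Mfap4 with 0.605, Slc13a4 with 0.495, Best2 with 0.313, Ltbp2 with 0.278, Slc26a4 with 0.209, Aldh3a1 with 0.187 and Colec12 with 0.139. The step from Gpx3 to Optc, 3.53, was larger than the SD of either gene over the 5 controls (2.08 and 1.58). The step from Arsi to Mfap4, 0.376, was about the SD of Mfap4, 0.370, and every other pair of neighbours differed by less than the larger SD of the pair. In LD-vehicle-1 and 2 Gpx3 averaged 115 CPM per kilobase, Optc 18.3 and Mfap4 13.9, and Colec12 was again last with 0.699. In LD-vehicle-3 to 5 Gpx3 averaged 20.2, Mfap4 2.37 and Arsi 1.52 CPM per kilobase, with Optc at 1.49 and Ltbp2 last at 0.115. Mfap4 was ahead of Arsi per kilobase in LD-vehicle-1 to 4 and in CTRL-vehicle-4 (1.12 against 0.917), and behind it in the other 4 controls and in LD-vehicle-5 (0.550 against 1.37).

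The name given to the 10 genes does not rest on these data, and the background given above does not tie each of them to those tissues. Lists of other ciliary genes had smaller median fold changes. Nothing is read from that difference, since the 10 were chosen for being higher in this contrast. Of 52 tested genes in 4 lists, for zonule, vitreous matrix, ciliary ion transport and ciliary and iris development, 4 rose and 1 fell by the edgeR quasi-likelihood test, against 5.32% of all genes higher and 7.85% lower. Of these 52, 22 were highest in both LD-vehicle-1 and 2, beside 4.71% of all genes. By list these were 5 of 14 zonule, 6 of 11 vitreous, 5 of 18 transport and 6 of 9 developmental genes. The genes named below from these lists were picked by calls and abundance, so they do not stand for those 22. Of the 14 zonule and microfibril genes edgeR called 0 and DESeq2 called 2, and an unadjusted edgeR p under 0.05 was reached by 5. Over all 16852 genes tested, DESeq2 called 1309 higher and 1602 lower, and its list counts hold both directions. Nothing is read from counts by unadjusted p, here and below, since the share of all genes was not counted. The median log2 fold change of the zonule genes was 0.02. The 16 genes of that list summed to 239.5 and 238.8 CPM in LD-vehicle-1 and 2, and to at most 223.9 CPM elsewhere. Ltbp3, a relative of Ltbp2 and the one with the highest mean CPM, had a mean of 70.3 ± 8.20 CPM in the LD libraries against 63.8 ± 7.23 in the CTRL libraries (SD, n = 5 each).

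Among 11 vitreous matrix genes 1 rose and 1 fell by edgeR, DESeq2 called 4, and the median log2 fold change was 0.36. Prelp, which like Optc encodes a small leucine-rich proteoglycan, had a mean of 56.6 ± 7.65 CPM in the LD libraries against 40.5 ± 1.89 in the CTRL libraries (SD, n = 5 each). Its fitted log2 difference was 0.48 (SE 0.08; edgeR, adjusted p = 0.00266). Prelp was called without LD-vehicle-1 and 2 as well, with a difference of 0.39 (edgeR, adjusted p = 0.0414). Col11a2, a fibrillar collagen chain, fell by 0.52 on the log2 scale (SE 0.15), and Col2a1, the main collagen chain of the vitreous, had 49.9 ± 5.42 against 59.7 ± 9.29 CPM.

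Of 18 ion and fluid transport genes 2 rose by edgeR, among them Clic6, and DESeq2 called 6. The median log2 fold change of the list was 0.20. Clic6, a chloride intracellular channel gene, had a mean of 5.90 ± 1.68 CPM in the LD libraries against 3.63 ± 0.509 in the CTRL libraries (SD, n = 5 each). Clic6 rose by 0.69 on the log2 scale (SE 0.19), and without LD-vehicle-1 and 2 it was not called (edgeR, adjusted p = 0.25). Of 9 developmental genes DESeq2 called 4, and by edgeR 1 rose, Bmp7, a bone morphogenetic protein. Bmp7 had 18.4 ± 2.85 CPM in the LD libraries against 11.1 ± 1.79 in the CTRL libraries (SD, n = 5 each). Its fitted log2 difference was 0.73 (SE 0.12; edgeR, adjusted p = 0.00229). Bmp7 did not overlap between groups and was called without LD-vehicle-1 and 2 (0.59; edgeR, adjusted p = 0.0318).

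Of 25 tested genes from the same sequence families as the 10, 5 rose and 2 fell by edgeR, and DESeq2 called 11. Over all genes tested edgeR called 5.32% higher and 7.85% lower, and DESeq2 called 1309 of 16852 higher and 1602 lower. The median log2 fold change of the 25 was 0.16. In 5 of the 25 both LD-vehicle-1 and 2 were highest, beside 4.71% of all genes. Slc13a3, a dicarboxylate transporter and the relative of Slc13a4, had a mean of 2.10 ± 0.757 CPM in the LD libraries against 0.905 ± 0.322 in the CTRL libraries (SD, n = 5 each), and rose by 1.19 on the log2 scale (SE 0.29). Gpx8, a glutathione peroxidase relative of Gpx3, rose by 0.58 on the log2 scale (SE 0.17). Slc26a2, a sulfate transporter and the relative of Slc26a4, went the other way, with 62.6 ± 5.55 against 90.9 ± 10.7 CPM, and fell by 0.54 on the log2 scale (SE 0.08; edgeR, adjusted p = 0.00159). It fell by 0.57 without LD-vehicle-1 and 2 and was called there too. Prelp, Bmp7 and Slc26a2 were called in 10 of 10 fits that left out 1 library, Slc13a3 in 9, Clic6 in 7, and Col11a2 and Gpx8 in 4 each. The fits that lost Col11a2, Clic6 and Gpx8 included those without LD-vehicle-1 and without LD-vehicle-2. Over all 10 fits the highest adjusted p by edgeR was 0.0742 for Col11a2, 0.0738 for Clic6 and 0.0997 for Gpx8. Slc13a3 was lost without LD-vehicle-1 (edgeR, adjusted p = 0.0515).

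Among lists for other tissues next to the retina, most lens and melanosome genes were highest in both LD-vehicle-1 and 2, beside 4.71% of all genes. Most stroma and pigment epithelium genes were not highest in both, though the pigment epithelium sum was highest in LD-vehicle-1. The summed level of 10 lens genes was 7529 and 4023 CPM in LD-vehicle-1 and 2, 126, 98.8 and 28.9 CPM in LD-vehicle-3 to 5, and between 10.3 and 40.3 CPM in the controls. Of these lens genes 9 of 10 were highest in both LD-vehicle-1 and 2. By edgeR 3 were called higher, the crystallins Cryba1, Crybb2 and Cryba4, and 0 lower, and DESeq2 called 9 of the 10. Without LD-vehicle-1 and 2 none of these 3 was called, and Crybb1 and Crybb3 were, with log2 fold changes of 2.20 and 1.62 (edgeR, adjusted p = 0.0426 and 0.0421), a pair named after their values were seen. Of the 10 fits that left out 1 library, 2 called Cryba1 and 1 each called Crybb2 and Cryba4. Cryaa, with the highest mean CPM of the list, had 3839 and 2084 CPM in LD-vehicle-1 and 2 and at most 49.9 CPM elsewhere. The lens genes and the 10 genes described here did not order the controls alike. CTRL-vehicle-1 and 5 had the highest lens sums, 40.3 and 32.8 CPM, and sums of 15.7 and 21.6 CPM for the 10 genes. CTRL-vehicle-4 had 10.8 CPM of lens genes and 44.5 CPM of the 10 genes, the highest control.

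The sum of 10 melanosome genes, whose products pigment cells make in albino animals too, was 146 and 125 CPM in LD-vehicle-1 and 2, between 25.9 and 58.7 CPM in LD-vehicle-3 to 5 and between 20.3 and 37.5 CPM in the controls. Of 8 tested, DESeq2 called 4, and by edgeR 2 rose, Rab38, a small GTPase of melanosome transport, and Oca2. Their log2 fold changes were 1.57 and 1.44, and neither was called without LD-vehicle-1 and 2. Rab38 was called in 10 of 10 fits that left out 1 library and Oca2 in 3. Of these 8 genes, 6 were highest in both LD-vehicle-1 and 2. The sum of 11 genes of stromal fibroblasts was 211 and 208 CPM in LD-vehicle-1 and 2, from 92.3 to 118 CPM in LD-vehicle-3 to 5 and from 81.5 to 153 CPM in the controls. Of 9 tested, edgeR called 0 and DESeq2 called 2, and 4 reached an unadjusted edgeR p under 0.05. The list's median log2 fold change was -0.34, 4 of the 9 had a positive one, and 2 of the 9 were highest in both LD-vehicle-1 and 2. Fbln1, a matrix protein gene in that list, had 112, 101, 20.8, 32.2 and 3.95 CPM in LD-vehicle-1 to 5 and between 2.47 and 15.3 CPM in the controls. Without Fbln1 the other 10 genes summed to 99.6 and 106 CPM in LD-vehicle-1 and 2, within the controls, which ran from 72.3 to 138 CPM. The sum of 12 genes of the retinal pigment epithelium was 356 and 242 CPM in LD-vehicle-1 and 2, from 199 to 258 CPM in LD-vehicle-3 to 5 and from 128 to 221 CPM in the controls. By that sum LD-vehicle-1 stood highest, and LD-vehicle-2 lay below LD-vehicle-4. Of 11 tested, 11 had a positive log2 fold change, with a median of 0.49, and 3 were highest in both LD-vehicle-1 and 2. DESeq2 called 2, and edgeR called 1 higher, Rdh10, a retinol dehydrogenase gene. Rdh10 had 47.1 and 53.4 CPM in LD-vehicle-1 and 2, below the 65.5, 62.6 and 57.8 CPM of LD-vehicle-3 to 5. It was called without LD-vehicle-1 and 2 (0.42; edgeR, adjusted p = 0.0324), and in 2 of the 10 fits that left out 1 library. The list's member Tfec had 0 counts in every control.

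Of 15 cornea genes 4 were analysed here, and the corneal keratins Krt5, Krt12 and Krt14 were not analysed. Their sum was 9.17 and 8.07 CPM in LD-vehicle-1 and 2, from 3.67 to 9.28 CPM in LD-vehicle-3 to 5 and from 2.19 to 3.74 CPM in the controls. Of the 2 tested, Perp and Tgfbi, edgeR called 0 and DESeq2 called 2, and 2 reached an unadjusted edgeR p under 0.05. A corneal pattern beside Aldh3a1 could therefore not be checked on its defining genes. Of 14 defining genes of the neural retina 4 rose by edgeR, beside 5.32% of all genes. Among them Rlbp1, a retinoid-binding protein gene of Müller glia, rose by 0.38 on the log2 scale (SE 0.08). The cone arrestin gene Arr3 fell, a call made in 2 of the 10 fits that left out 1 library, and 0 were highest in both LD-vehicle-1 and 2. The part of lens, pigment cells, stroma and pigment epithelium in the values of the 10 genes was not tested.

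**Figure D4:**
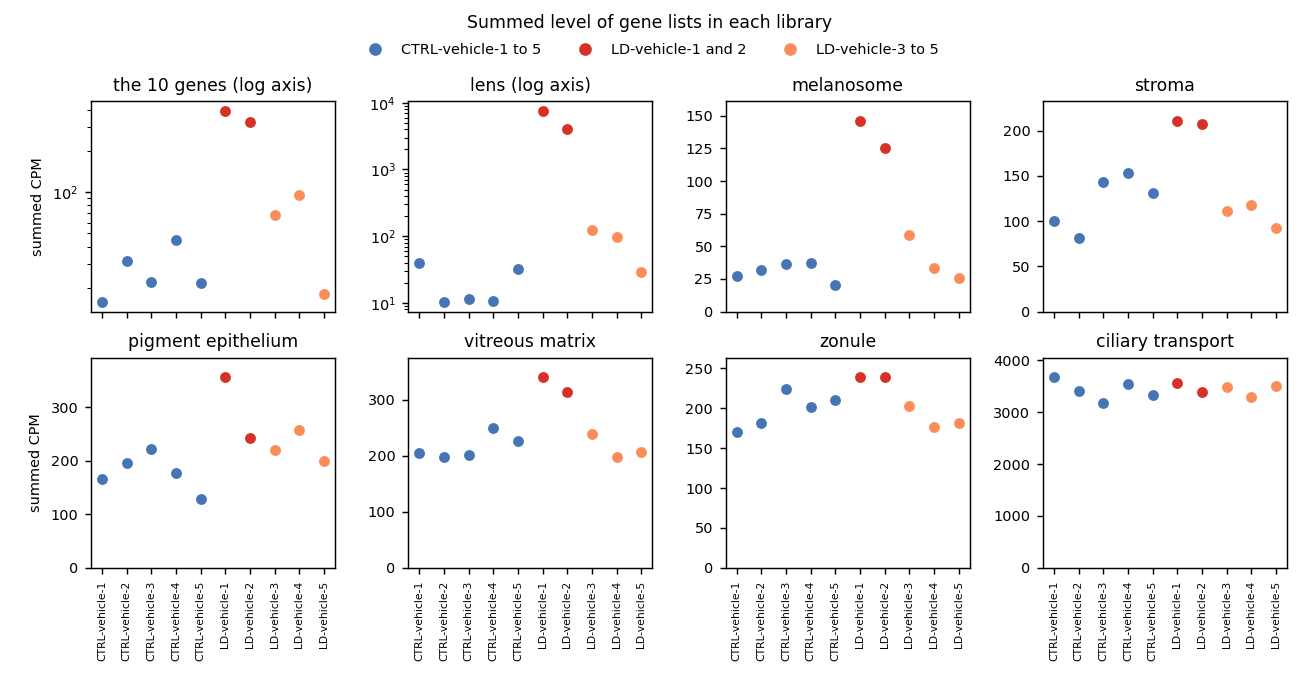
Summed CPM of the 10 genes and of 7 other gene lists in each library; 1 point is 1 library, the first 2 panels have a log axis and the others start at 0. The sums of the 10 genes, lens, melanosome, stroma, vitreous matrix and zonule are highest in LD-vehicle-1 and 2. The stroma sum is so through Fbln1 (112 and 101 of 211 and 208 CPM). The zonule sum is 239.5 and 238.8 CPM there and at most 223.9 CPM elsewhere. The sum for ciliary transport, 3556 and 3391 CPM in LD-vehicle-1 and 2, lies within the controls.

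The genes most like the 10 in their pattern were found by the root mean square difference, over the 10 libraries, between a gene's centred log2 CPM and the mean of the 10 genes. Genes without a symbol or with the symbol of a gene model were left out, as were the 10 genes. Among the 13513 others whose mean reached 1 CPM, the nearest were Gja1, Dio3, Tyrp1, Sod3, Ogn, Cldn2, Slc6a13, Igfbp7, R3hdml and Slc16a12, with differences from 0.329 to 0.527. The 10 genes themselves differed from their own mean by between 0.364 for Best2 and 0.793 for Ltbp2. Gja1, the gap junction protein connexin 43 and also in the ciliary transport list, had 44.4, 30.4, 9.23, 11.4 and 3.06 CPM in LD-vehicle-1 to 5 and between 3.92 and 7.55 CPM in the controls, with CTRL-vehicle-4 the highest of these. Cldn2, a claudin of leaky epithelia, had 11.8, 9.41, 1.70, 2.27 and 0.167 CPM in LD-vehicle-1 to 5 and between 0.302 and 0.643 CPM in the controls. Igfbp7, a secreted binding protein, had 162.5 and 109 CPM in LD-vehicle-1 and 2 and between 11.6 and 22.9 CPM in the other libraries, so it shared the step of those libraries and not the higher values of LD-vehicle-3 and 4. Ogn, like Optc a small leucine-rich proteoglycan, had 24.2 and 13.3 CPM in LD-vehicle-1 and 2 and at most 3.32 CPM elsewhere. With LD-vehicle-1 and 2 left out, 4 of these 10 were again among the 10 nearest, Gja1, Dio3, Ogn and Slc6a13.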

How the data were processed

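The authors deposited whole-number counts per gene for 10 libraries, 5 of each group, grouped by the sample titles. Tools named in the submitters' processing notes, with no role given, are DESeq2 1.4.5, RSEM 1.3.1 and Bowtie2, with genome build GRCm39. If the counts began as RSEM estimates and were rounded is not known here. Ensembl identifiers were paired with symbols and exon lengths by GENCODE M21, with 19892 of 19999 matched. All deposited columns were used.

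The test used edgeR 4.0.16 in R 4.3.3: filterByExpr (which left 16852 genes), TMM scaling, and the quasi-likelihood test with robust dispersion and group as the single term, with Benjamini-Hochberg adjustment over all genes tested and calls at an adjusted p under 0.05. CPM follow the TMM scaling, with a prior count of 2 on the log2 scale. The SE of a log2 fold change came from that test's F statistic. With nothing in the labels on separate animals, p-values cover no more than the spread among the libraries, which may be technical. Every pair of libraries differed beyond sampling noise (chi-square per degree of freedom of at least 5.77). The steps were tested on simulated counts.

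The 10 genes and all lists were chosen with earlier results of these data known. Of each list the text names up to 2 called genes with the largest and 1 with the smallest fold change and the 2 most abundant, not all of them, with Ogn, Cldn2 and Igfbp7 from the nearest genes, and Crybb1, Crybb3, Tfec, Krt5, Krt12 and Krt14 outside that rule. Alternatives were DESeq2 1.42.0, RLE scaling, library totals, no filter, the replicate number as a block, leaving out each library, and leaving out LD-vehicle-1 and LD-vehicle-2. Figures used Python 3.11.15 and matplotlib 3.10.9.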

Additional observations from a re-analysis of the deposited data

Results flagged for a closer look

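Best2 in the controls was set by 1 library: CTRL-vehicle-4 had 1.52 CPM, and its gap to the next control was 0.751 of the range of the group, above Dixon's 95% critical value of 0.71 for 5 samples. Of 42 groups of values examined, the 10 genes and 11 list sums in each of the light damage and control groups, 1 was flagged, and chance flags about 1 in 20.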

How the results depend on the processing

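With the replicate number as a block, 3285 genes, 1 of the 10 genes (Colec12) and 33 list genes were called, against 2219, 5 and 22 without it; same-numbered libraries correlated in their deviations between 0.0522 and 0.316, so the numbers were not taken to pair them. DESeq2 called 8 of the 10 genes, adding Best2, Slc26a4 and Aldh3a1, and 48 list genes, beside 1309 of 16852 genes higher and 1602 lower. Without a filter on low counts 2 of the 10 were called. Without LD-vehicle-1 and LD-vehicle-2, 403 genes, 0 of the 10 and 8 list genes were called, the fold changes of Optc and Ltbp2 reversed to -0.46 and -1.25, and 4 of the 10 nearest genes were shared. Over the fits that left out 1 library, calls ran from 1127 to 2991 for all genes, from 1 to 7 for the 10 genes and from 9 to 37 for the list genes, with 1163, 1306 and 1127 genes without LD-vehicle-1, 2 and 3 and 1455 without CTRL-vehicle-5. Of the 10 genes, 10 kept a positive fold change in each of these fits and under RLE scaling, library totals, DESeq2, no filter and the block. The cause of these changes was not tested, and the fits that left libraries out also held fewer of them. Control counts of the 10 genes lay between 2 and 256, which limits the precision of the lowest, Aldh3a1, Best2 and Slc26a4. With library totals alone, 1147 genes were higher and 912 lower, against 896 and 1323.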
